A study of Homo sapiens with 3 samples.

Results

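The genes examined encode 10 transcription factors of endothelial-to-mesenchymal transition (EndMT) and of mesenchymal lineages: SNAI1, SNAI2, TWIST1, TWIST2, ZEB1, ZEB2, PRRX1, TCF21, TBX18 and MSX1. They were chosen by symbol in a RefSeq gene table of GRCh38.p14, and all 10 were found among its 20037 protein-coding genes on chromosomes 1 to 22, X and Y. Chromatin accessibility came from 1 ATAC-seq library, labelled replicate 2, of hCMEC/D3 cells, which descend from human endothelium of small brain vessels and were immortalized, grown to confluence on rat tail collagen without any labelled treatment. ATAC-seq cuts and tags open DNA with the Tn5 transposase, and a peak is a stretch where the tags pile up above a background. Of 106415 broad peaks called from 22188172 filtered tags, 97 lay in the 10 genes or within 50 kb of them, and no peak was counted for more than 1 of these genes. There was no second ATAC library, no control cell and no other condition, so every value below describes this library and has no replicate error.

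In EndMT an endothelial cell loses its junctions and gains the motility and matrix production of a mesenchymal cell, as in the formation of the heart valves. Transforming growth factor beta and bone morphogenetic protein signals act through SMAD proteins to induce a small set of transcription factors. SNAI1 and SNAI2 (Snail and Slug) and ZEB1 and ZEB2 are zinc finger proteins that bind E-boxes and repress junction genes. TWIST1 and TWIST2 are basic helix-loop-helix (bHLH) factors of mesoderm and mesenchyme. The remaining factors mark mesenchymal lineages: PRRX1 and MSX1 are homeodomain proteins of limb and craniofacial mesenchyme, TCF21 is a bHLH factor of epicardial and fibroblast progenitors, and TBX18 is a T-box factor of the epicardium and of pericytes.

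A peak was placed at a gene end when it overlapped 1 kb either side of either end of the gene, inside when it overlapped the gene elsewhere, and in the flank when it lay within 50 kb outside. An end peak was found for 8 of the 10 genes. The background was 72.8% of all protein-coding genes, and 64.2% to 80.8% of genes of similar length (within 1.5 times) to each of the 10, so the count was near the background. The count depended on the filter put on the peaks. With peaks of a fold over background of at least 4 only, 3 of the 10 genes had an end peak, against 56.0% of all protein-coding genes. With a −log10 q-value of at least 5 there were 6, against 66.7%. With a pileup of at least 20 tags there were 7, against 63.4%. Without these filters, the genes with no peak in the end windows were PRRX1 and TCF21. Of the 97 peaks, 11 were at a gene end, 35 inside and 51 in a flank. The shares were 11.3%, 36.1% and 52.6%, against 9.40%, 25.7% and 64.9% over the loci of all protein-coding genes. At least 1 peak inside was found for 7 of the 10 genes (background 55.9%) and at least 1 flank peak for 8 (background 92.4%).

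**Figure D1:**
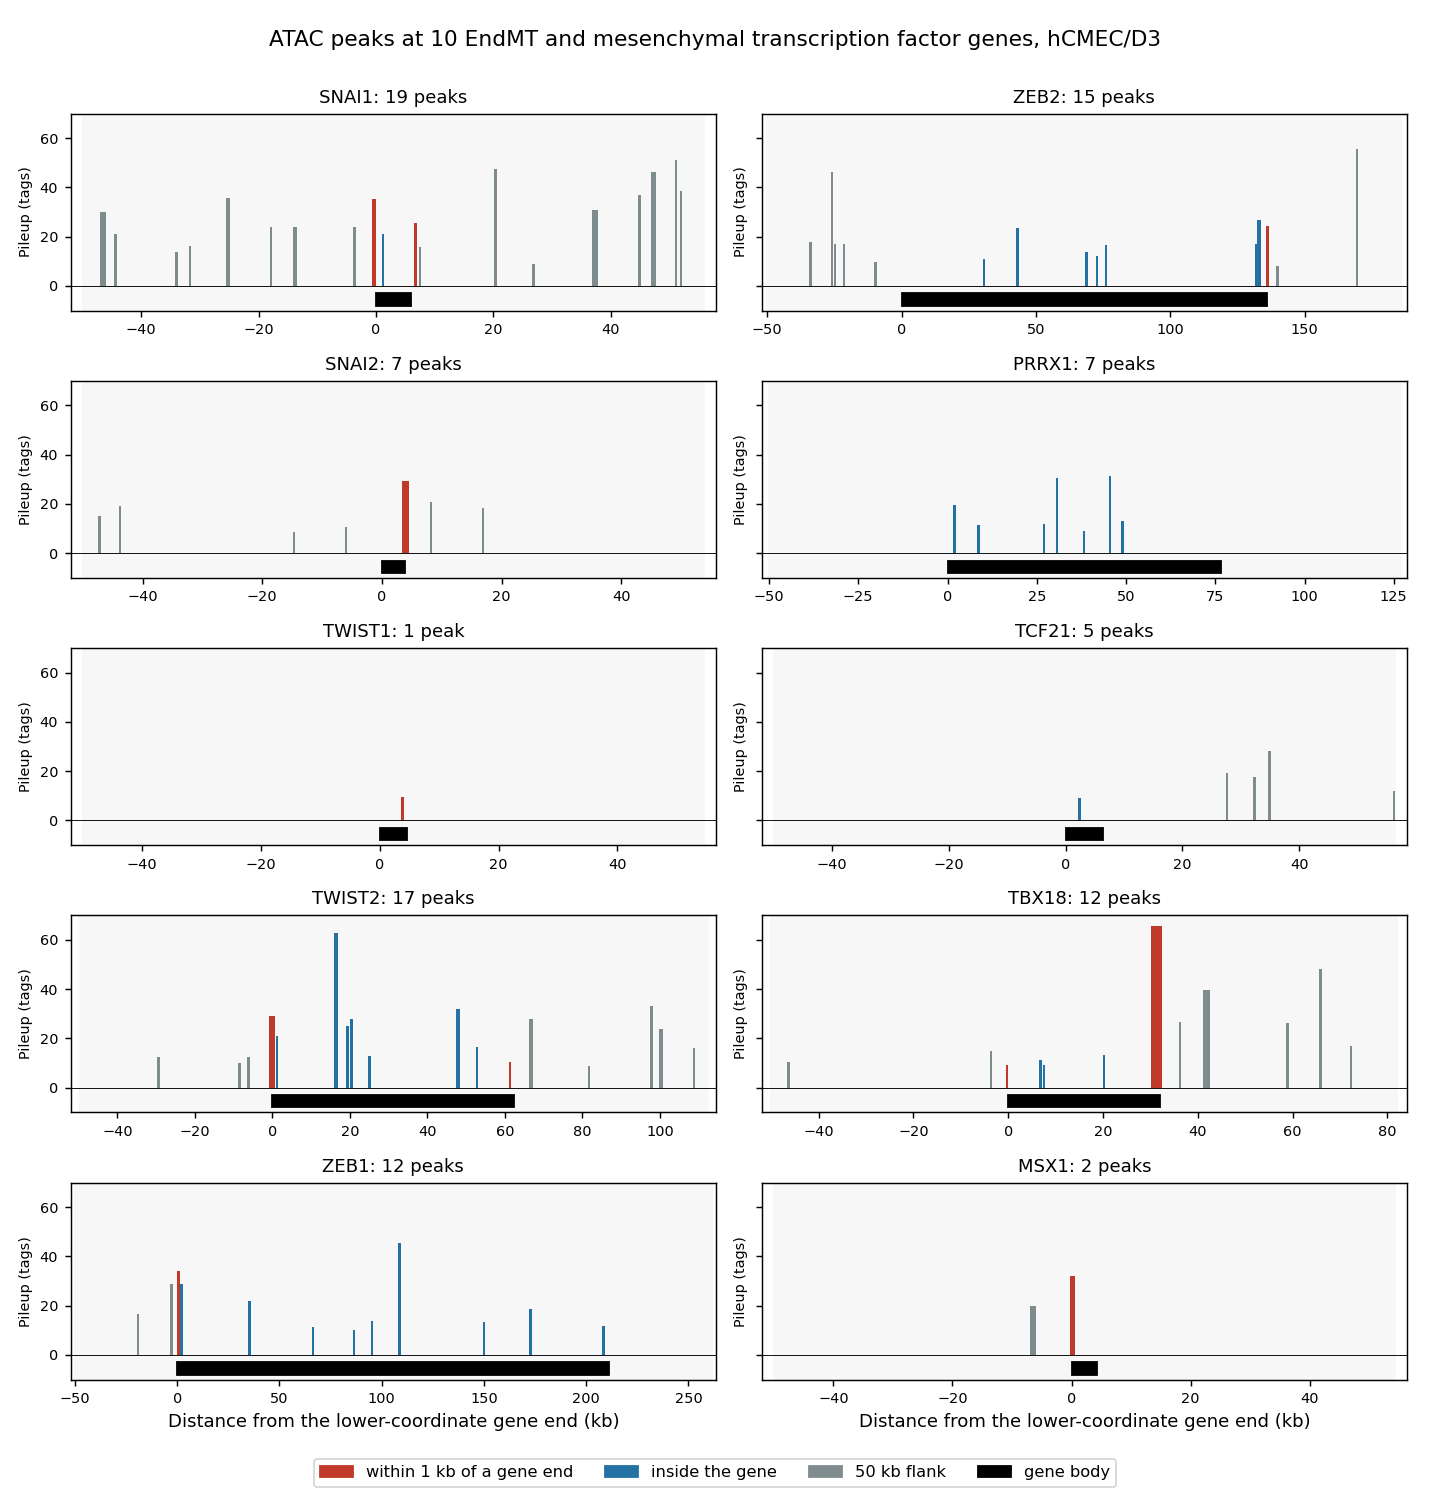
ATAC peaks at the 10 genes. Each panel shows 1 gene (black bar) with its peaks by distance in kb from the gene end of lower coordinate (x axis) and pileup in tags (y axis); narrow peaks are drawn wider than they are so that they can be seen, and colour gives the position. TWIST1 has a single low peak of 9.6 tags, whereas SNAI1 has 19 peaks spread over both flanks.

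The number of peaks differed widely among the genes. SNAI1 had 19 peaks, TWIST2 had 17, ZEB2 had 15, ZEB1 and TBX18 had 12 each, SNAI2 and PRRX1 had 7 each, TCF21 had 5, MSX1 had 2 and TWIST1 had 1. Gene length sets part of this number, so each gene was ranked among the protein-coding genes of similar length, with ties split evenly. SNAI1 stood at the 98.5th percentile and TWIST2 at the 87.8th. TBX18 stood at the 70.4th and ZEB2 at the 64.1st, while ZEB1 was at the 44.0th and SNAI2 at the 43.5th. PRRX1 (30.8th), TCF21 (27.4th), MSX1 (13.8th) and TWIST1 (8.19th) made up the lower end. The median over the 10 genes was the 43.7th percentile, with 4 genes above the median of genes of their length and 6 below it. For TWIST1, 8.18% of all protein-coding genes likewise had at most 1 peak in their locus.

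**Figure D2:**
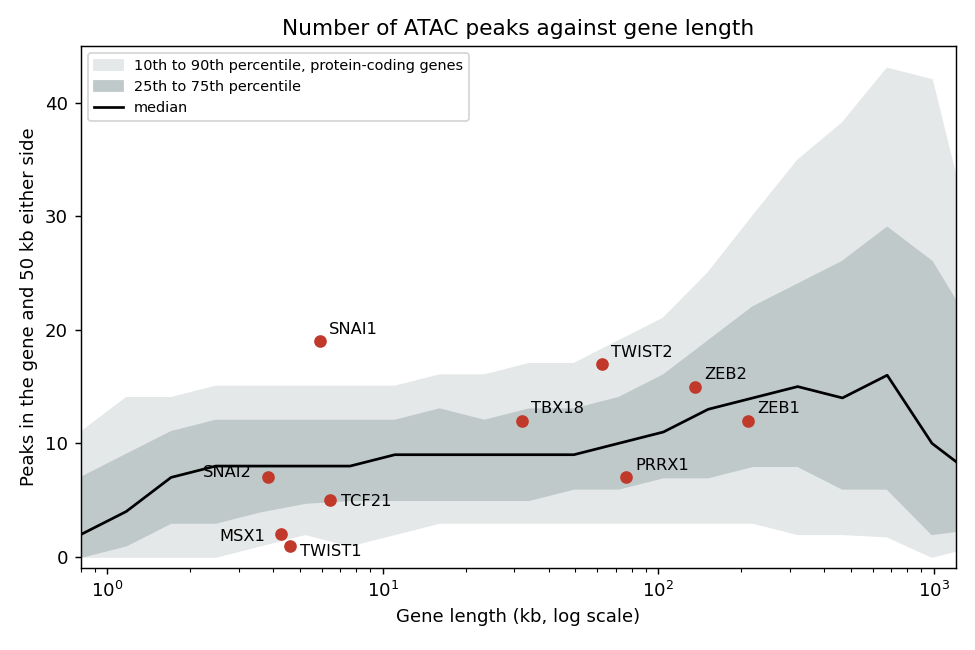
Number of ATAC peaks in each gene and 50 kb either side (y axis) against gene length in kb on a log scale (x axis). Bands and line give percentiles over protein-coding genes, and points are the 10 genes: SNAI1, with 19 peaks, lies above the 90th percentile of genes of its length, while TWIST1 with 1 peak and MSX1 with 2 lie low.

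These loci were gene-poor. No other protein-coding gene lay within 50 kb of 8 of the 10 genes, against 11.3% of all protein-coding genes. The exceptions were SNAI1, with RNF114 at 29095 bp, and TWIST1, with the bHLH gene FERD3L at 27146 bp. Peaks of neighbouring genes count in the flanks, so each gene was also ranked among genes of similar length with an equal number of protein-coding neighbours. The median percentile then rose from the 43.7th to the 71.5th, and 8 of the 10 genes stood at or above the 50th. SNAI1 was at the 99.6th percentile, TWIST2 at the 93.2nd, TBX18 at the 85.7th, ZEB2 at the 80.7th and SNAI2 at the 80.3rd. TWIST1 remained at the 8.28th and MSX1 was at the 39.0th. Of such genes 46.9% to 72.0% had an end peak. This second ranking was chosen after the first was seen.

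**Figure D3:**
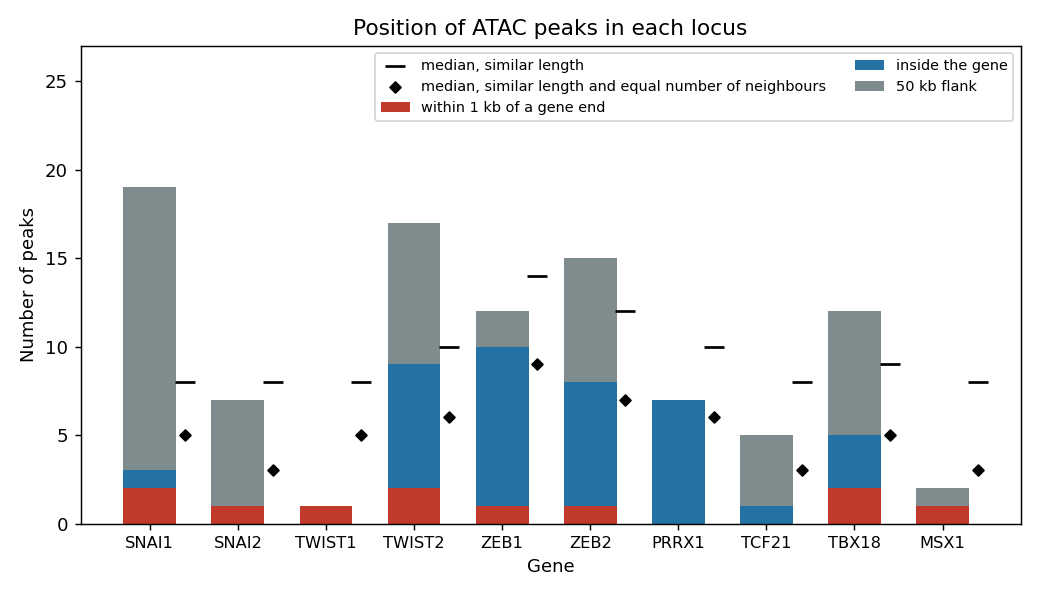
Number of peaks at gene ends, inside and in the flanks (stacked bars) for each gene. Dashes give the median number over genes of similar length and diamonds the median over those that also have an equal number of protein-coding neighbours: 8 and 3 for SNAI2, which had 7 peaks.

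Where the ends of these genes were accessible, the pileup was mostly below that of comparable genes, while the width was not. The highest end peak had a pileup (the mean number of tags stacked over the peak, as the authors' caller gives it) of 65.6 tags at TBX18, 35.2 at SNAI1, 34.3 at ZEB1, 32.0 at MSX1, 29.2 at SNAI2 and at TWIST2, 24.3 at ZEB2 and 9.6 at TWIST1. The median of these 8 values was 30.6 tags, against 45.7 over all protein-coding genes that had such a peak. Against genes of similar length with an end peak, 7 of the 8 were below the 50th percentile, from the 1.07th for TWIST1 to the 40.3rd for ZEB1, and TBX18 was at the 81.2nd. With an equal number of neighbours the same count held, 7 of 8, with the median moving from the 27.4th to the 42.0th percentile. SNAI2 and MSX1 were then at the 49.5th. In width of the widest end peak, 4 of the 8 genes were at or above the 50th percentile of genes of similar length and 4 below it. TBX18 (99.4th), TWIST2 (86.9th), ZEB1 (83.1st) and SNAI2 (58.3rd) were above. MSX1 (29.7th), SNAI1 (26.3rd), ZEB2 (4.32nd) and TWIST1 (0.301st) were below. The median pileup of all peaks on the chromosomes that carry the genes ran from 19.3 to 22.9 tags, and a part of DNA copy number in the pileups was not tested.

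**Figure D4:**
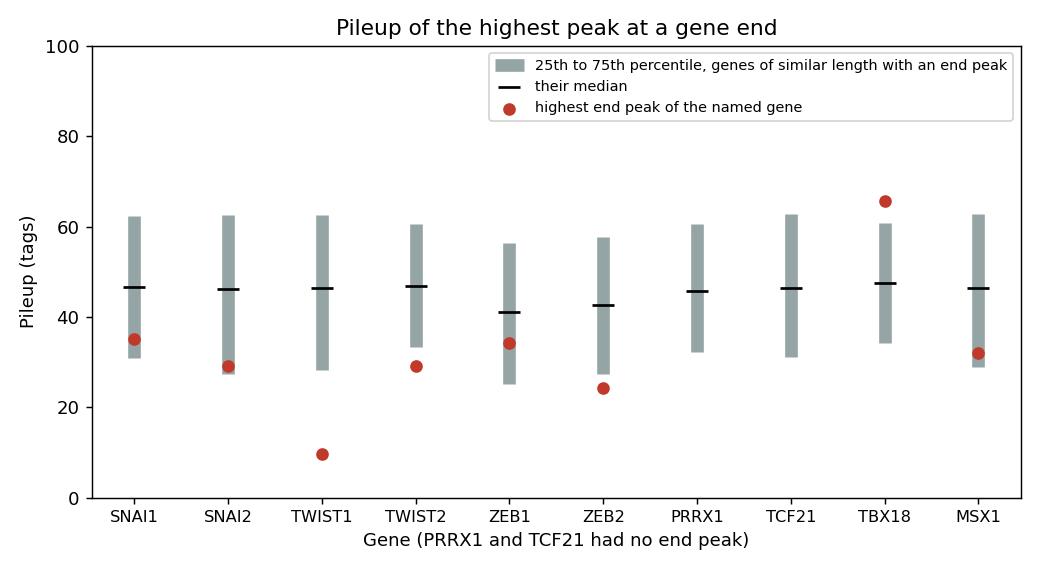
Pileup in tags (y axis) of the highest peak at an end of each gene (points), with the median (dash) and the 25th to 75th percentile (bar) over genes of similar length that have an end peak. TBX18 with 65.6 tags lies above its bar and TWIST1 with 9.6 tags far below its own.

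Start sites were read from the RefSeq promoter table, which held 13 windows for 7 of the 10 genes; each window runs from 250 bases before a start to 50 bases after it. A peak covered at least part of a start window for 5 of these 7 genes (ZEB1, ZEB2, TWIST2, TBX18 and MSX1), against 70.2% of the protein-coding genes in the table. The windows of ZEB2, TWIST2 and TBX18 were covered over all 300 bases and that of MSX1 over 272. At PRRX1 the nearest peak began 111 bases after the start, and at TCF21 2156 bases after it. The windows differed in CpG content, the feature that marks CpG island promoters, and the 250 bases before each start are shown with every CG dinucleotide in capitals, 5′ to 3′ on the strand of the gene, from RefSeq GRCh38.p14. The first 4 lay under a peak and the last 2 did not.
TBX18 (chr6:84764599-84764848, minus strand): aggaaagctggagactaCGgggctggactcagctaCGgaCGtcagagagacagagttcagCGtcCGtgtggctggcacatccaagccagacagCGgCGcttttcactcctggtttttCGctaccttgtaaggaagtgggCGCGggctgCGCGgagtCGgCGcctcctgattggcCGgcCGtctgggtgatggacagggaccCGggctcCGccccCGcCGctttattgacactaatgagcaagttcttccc
MSX1 (chr4:4859415-4859664, plus strand): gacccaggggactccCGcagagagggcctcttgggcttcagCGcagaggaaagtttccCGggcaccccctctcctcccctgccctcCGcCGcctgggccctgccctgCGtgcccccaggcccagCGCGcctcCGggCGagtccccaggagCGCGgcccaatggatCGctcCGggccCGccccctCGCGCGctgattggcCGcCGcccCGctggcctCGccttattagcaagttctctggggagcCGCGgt
TWIST2 (chr2:238847835-238848084, plus strand): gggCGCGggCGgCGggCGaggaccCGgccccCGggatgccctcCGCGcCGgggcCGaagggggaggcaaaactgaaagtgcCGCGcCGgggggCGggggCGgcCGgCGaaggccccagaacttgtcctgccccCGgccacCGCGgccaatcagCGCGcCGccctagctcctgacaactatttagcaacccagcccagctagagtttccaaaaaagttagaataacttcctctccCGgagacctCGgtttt
ZEB2 (chr2:144520120-144520369, minus strand): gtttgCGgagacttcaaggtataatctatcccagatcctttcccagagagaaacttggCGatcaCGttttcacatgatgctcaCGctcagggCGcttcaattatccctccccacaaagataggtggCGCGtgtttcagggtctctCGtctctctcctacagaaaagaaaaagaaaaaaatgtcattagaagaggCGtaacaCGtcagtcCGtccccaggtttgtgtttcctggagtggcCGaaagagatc
PRRX1 (chr1:170663881-170664130, plus strand): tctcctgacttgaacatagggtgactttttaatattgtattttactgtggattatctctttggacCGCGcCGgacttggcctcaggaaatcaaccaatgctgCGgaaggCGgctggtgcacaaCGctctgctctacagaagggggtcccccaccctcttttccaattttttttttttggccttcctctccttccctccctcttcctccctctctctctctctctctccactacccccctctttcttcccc
TCF21 (chr6:133888863-133889112, plus strand): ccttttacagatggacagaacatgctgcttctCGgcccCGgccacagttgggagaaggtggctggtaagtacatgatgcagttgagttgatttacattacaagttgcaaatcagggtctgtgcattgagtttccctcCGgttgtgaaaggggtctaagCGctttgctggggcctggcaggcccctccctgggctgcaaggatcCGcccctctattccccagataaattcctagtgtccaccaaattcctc

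CG dinucleotides numbered 26 in the TWIST2 sequence, 24 in MSX1, 20 in TBX18 and 12 in ZEB2, but 6 in PRRX1 and 5 in TCF21. The ratio of observed to expected CpG in these bases was 0.889 for TWIST2, 0.847 for TBX18, 0.834 for ZEB2 and 0.719 for MSX1, and 0.425 for PRRX1 and 0.287 for TCF21. ZEB2 had the lowest GC content of the 6, 48.0%, and yet a high ratio. Over all windows of protein-coding genes, a peak lay over 88.0% of those with a ratio of at least 0.6 and over 29.7% of those below it, a split chosen after these values were seen. Of the 6 starts shown, the 4 covered lay above the split and the 2 uncovered below it. The 7 ZEB1 windows all lay above it, from 0.616 to 1.09, and the seventh, with a ratio of 0.663, had no peak over it.

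ZEB1 has 7 windows in the table, and a single peak of 1663 bp covered the first 4 at least in part. The third start of ZEB1 is shown because it carries the sequence CAGGTG, the E-box that the SNAI and ZEB proteins bind, on either strand at 2 places (capitals), which begin 242 and 85 bases before the start.
ZEB1 (chr10:31318966-31319215, plus strand): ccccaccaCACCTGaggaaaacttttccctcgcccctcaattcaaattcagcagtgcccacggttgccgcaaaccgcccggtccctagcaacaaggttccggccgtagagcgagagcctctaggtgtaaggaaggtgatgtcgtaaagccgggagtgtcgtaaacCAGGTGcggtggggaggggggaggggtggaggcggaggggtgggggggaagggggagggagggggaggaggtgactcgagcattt

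Motifs were searched on both strands in the 250 bases before each start. CAGGTG or its reverse complement CACCTG occurred in 17.5% of all 35116 windows and at 2 or more places in 2.53%. The first ZEB1 window held it at 1 place, and the windows of the other 6 genes at none. The GC box GGGCGG, in 42.6% of all windows, was found at 4 places in TWIST2, 2 in MSX1, 1 in TBX18 and 1 in TCF21, at 1 to 3 places in 5 of the 7 ZEB1 windows, and at none in PRRX1 and ZEB2. CCAAT, in 32.0% of all windows, was found at 2 places in PRRX1 and MSX1 and at 1 in TWIST2 and TBX18. The TWIST E-box CATATG (2.63% of all windows), the AP-1 site TGANTCA (6.57%), the TATA box TATAAA (10.7%) and the SMAD element GTCTAGAC (0.182%) had no match in any of the 13 windows. The second TWIST E-box, CAGATG (12.2%), was found in TCF21 and in the first ZEB1 window, and the MSX core TAATTG (6.70%) in ZEB2. Such matches describe letters and are not binding sites.

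Among the zinc finger repressors, SNAI1 had 19 peaks and SNAI2 had 7. The SNAI1 count depends on the flank: with 25 kb either side it was 10, below the 12 each of ZEB1 and ZEB2. SNAI1, on chromosome 20 and 5907 bp long, had end peaks from 49982264 to 49983046 (783 bp, 35.2 tags) and from 49989395 to 49989885 (491 bp, 25.5 tags). Its 16 flank peaks compare with a median of 7 over genes of similar length, and 4 of them lay at ends of other genes, among them RNF114 and the long noncoding RNA gene SCREEM1. The flank peak of highest fold over background, 9.38, ran from 50003155 to 50003669, 14269 bp beyond the gene, with 47.4 tags. A further SNAI1 peak from 49984064 to 49984289 lay 1084 bp from the gene end, just outside the end window. SNAI2, on chromosome 8 and 3832 bp long, had 1 end peak from 48920973 to 48922130 (1158 bp, 29.2 tags, fold 4.95) and 6 flank peaks of 8.55 to 20.9 tags.

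ZEB1 and ZEB2 are long genes with 1 end peak each. Their other peaks lay inside or in the flanks, where most peaks over the loci of all protein-coding genes also lay (25.7% and 64.9%). ZEB1, on chromosome 10 and 211388 bp long, had 9 peaks inside, where genes of similar length had a median of 7. Its end peak from 31318201 to 31319863 had a fold of 3.03. The highest ZEB1 pileup, 45.3 tags over 1621 bp with a fold of 5.63, lay 101917 bp from the nearer gene end, from 31426267 to 31427887. ZEB2, on chromosome 2 and 136039 bp long, had 7 peaks inside and 7 in the flanks. Its end peak was narrow, 343 bp from 144520044 to 144520386, at the 4.32nd percentile of width among the widest end peaks of genes of similar length. The peak of highest fold at any of the 10 loci, 10.5 with 55.4 tags, lay 33141 bp upstream of ZEB2, from 144553260 to 144553879. In fold it stood at the 99.7th percentile of all peaks in the library. A second ZEB2 flank peak, 25618 bp downstream, had 46.4 tags and a fold of 7.61.

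The paired TWIST genes stood far apart. TWIST1, on chromosome 7 and 4590 bp long, had only a peak of 200 bp, the smallest width called, from 19116760 to 19116959, with 9.6 tags and a fold of 3.14. The lowest pileup called anywhere was 8.0 tags, so this peak was near the limit of detection. TWIST2, on chromosome 2 and 62450 bp long, had 17 peaks, 7 of them inside. Its start lay under a peak of 1638 bp from 238847125 to 238848762 with 29.2 tags. The highest TWIST2 pileup, 62.8 tags, belonged to a peak inside the gene from 238864021 to 238865018, 15936 bp from the start. With −log10 q of at least 5, TWIST2 kept 7 peaks and TWIST1 0, and the counts were the same with a fold of at least 4. With 1 library, the difference of 1 and 17 peaks has no replicate check, and the genes differ in length.

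TCF21, on chromosome 6 and 6425 bp long, had 1 weak peak inside, 8.94 tags from 133891269 to 133891648, and 4 peaks in the downstream flank. Of these, the one from 133923764 to 133924290, 28227 bp beyond the gene, reached 28.1 tags and a fold of 8.63. The long noncoding RNA gene TARID, whose end is 107 bp from TCF21, had no end peak either.

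TBX18 had the end peak of highest pileup and greatest width of the set, but not of highest fold. On chromosome 6 and 32103 bp long, it had a peak of 2449 bp from 84762544 to 84764992 with 65.6 tags, at the 99.4th percentile of width among the widest end peaks of genes of similar length. The fold of this TBX18 peak was 3.48. End peaks of MSX1 (5.73), SNAI2 (4.95), SNAI1 (4.52 and 4.19) and TWIST2 (3.73 at its start) had higher folds. The fold sets the pileup over a background that the caller took from the neighbourhood within 10000 bp or from the whole genome. Different peaks therefore need not share a background. Upstream, 2 peaks reached folds of 9.11 (84798100 to 84798754, 48.3 tags) and 8.13 (84791261 to 84791649, 26.4 tags). The first of these also lay at an end of the noncoding gene LOC124901494. At the other end of the gene the peak from 84732025 to 84732510 had 9.16 tags.

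The homeodomain genes PRRX1 and MSX1 had 7 and 2 peaks. Genes of similar length with an equal number of protein-coding neighbours had medians of 6 and 3. In that ranking PRRX1 stood at the 54.0th percentile and MSX1 at the 39.0th. PRRX1, on chromosome 1 and 76654 bp long, had all 7 of its peaks inside the gene and none in the flanks. Genes of similar length had medians of 3 inside and 6 in the flanks, not matched for neighbours. The PRRX1 peak nearest its start, from 170664242 to 170665201 with 19.6 tags, began 1474 bp from the end of the gene model in the gene table, which extends beyond the start in the promoter table, and so fell outside the end window. Inside PRRX1, peaks from 170693194 to 170693620 and from 170707990 to 170708537 had folds of 9.35 and 8.03. MSX1, on chromosome 4 and 4272 bp long, had an end peak from 4859443 to 4860243 with 32.0 tags and a fold of 5.73, above the other end peaks of the set, and a flank peak of 19.7 tags.

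A fold of at least 8 was reached by 7 of the 97 peaks (7.22%; background 5% of all peaks, 5318 of 106415), and a fold of at least 7 by 10 (10.3%; background 11.4%). Both limits were chosen after the values were seen. The share was above the background at the first limit and below it at the second, so the comparison with all peaks rests on the limit. At either limit these peaks lay at ZEB2, SNAI1, PRRX1, TBX18 and TCF21, and none was among the 11 end peaks, whose folds ran from 3.01 to 5.73. Of the peaks at an end of any protein-coding gene, 3.69% reached 8 and 10.7% reached 7, so none of 11 is near the background. The smallest width called, 200 bp, was found for 9 of the 97 peaks (9.28%; background 3.20%). End peaks were wider, with a median of 783 bp and 29.2 tags. Peaks inside had medians of 316 bp and 16.5 tags, and flank peaks 348 bp and 19.4 tags. The highest end peak was shared with an end of another gene, noncoding in each case, for 5 of the 8 genes (ZEB1, ZEB2, SNAI2, TWIST2 and TBX18; background 46.6%). The peak of highest pileup in the locus lay at an end for 4 genes (SNAI2, TWIST1, TBX18 and MSX1; background 24.9%), inside for 3 (TWIST2, ZEB1 and PRRX1) and in the flank for 3 (SNAI1, ZEB2 and TCF21).

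Signalling genes that act upstream of these factors were examined for the same values, with 45.7 tags, the median of the highest end peak over all protein-coding genes that had one, as the reference. The background for having an end peak was 72.8% of all protein-coding genes, for these lists and those that follow. Of 11 EndMT ligand genes 9 had an end peak, with a median of 58.9 tags over those that did. TGFB2 (63.2 tags), the Notch ligand gene JAG1 (72.1) and TGFB1 (47.7) had the highest length percentiles of peak number, and WNT5A, BMP2 (13.0 tags) and TGFB3 (44.7) the lowest. WNT5A and TNF had no end peak. Of 8 receptor genes 7 had an end peak, with a median of 60.2 tags. ENG, ACVRL1 and TGFBR3 had the highest length percentiles of peak number, with 26, 17 and 28 peaks, and TGFBR3 had no end peak and 20 peaks inside. TGFBR1 (60.8 tags), ACVR1 (60.4) and BMPR2 (60.2) had the fewest for their length. All 8 SMAD genes had an end peak, with a median of 45.6 tags, from 21.7 at SMAD9 to 63.1 at SMAD6; SMAD7, SMAD3 and SMAD6 had 27, 35 and 27 peaks, at the 99.8th, 99.2nd and 98.6th length percentiles. SMAD5, SMAD1 and SMAD4 were lowest, with 6, 8 and 11 peaks.

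Partners of the factors were examined next. Of 7 genes for bHLH partners and ID inhibitors 5 had an end peak, with a median of 70.6 tags; TCF4, with 32 peaks inside, and ID4 had none. ID3, ID1 and TCF4 stood at the 99.0th, 98.6th and 86.5th length percentiles, and ID4, ID2 and TCF3 at the 13.1st, 35.9th and 55.6th. All 8 corepressor genes had an end peak, with a median of 44.7 tags; CTBP2, HDAC1 and KDM1A had the most peaks for their length and EZH2, RCOR1 and SIN3A the fewest.

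Target genes varied. Of 10 genes repressed in the transition 8 had an end peak, with a median of 30.8 tags, and CDH1 (E-cadherin) and the epithelial splicing regulator gene ESRP1 had none. ESRP1, CDH1 and the junction gene OCLN were lowest in length percentile of peak number. PECAM1, CDH5 and VWF, all genes of endothelial identity, had 30, 21 and 35 peaks, at the 99.7th, 98.1st and 97.4th length percentiles. Of 15 mesenchymal genes induced in EndMT 11 had an end peak, near the background of 72.8%, with a median of 53.4 tags. S100A4 and CCN2 were among the 3 highest in length percentile of peak number (92.0th and 90.6th), and ACTA2, COL3A1 and POSTN were the lowest (33.5th, 21.2nd and 15.6th); POSTN, COL3A1, CNN1 and MMP9 had no end peak.

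Relatives of the 10 genes in the same protein families had the lowest share with an end peak of these lists. An end peak was found for 6 of 13 (background 72.8%), with a median of 24.8 tags. This background was not matched to the lists for gene length or neighbours. Among genes matched on both to each of the 10 factor genes, 46.9% to 72.0% had an end peak. No end peak was found at TBX22, MSX2, TBX15, MSC, TCF15, FERD3L and HAND2, and TBX22 and MSX2 had no peak within 50 kb (background 4.74%). SNAI3, PRRX2 and SCRT1 had the most peaks for their length. MSX1 had an end peak and its relative MSX2 none, and TBX18 had one and TBX15 and TBX22 none. By these end windows the reverse held for PRRX1, which had none, and PRRX2, which had one of 14.7 tags. PRRX1 did have a peak of 19.6 tags that began 111 bases after its start in the promoter table, outside the end window. The differences between lists were not tested.

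**Figure D5:**
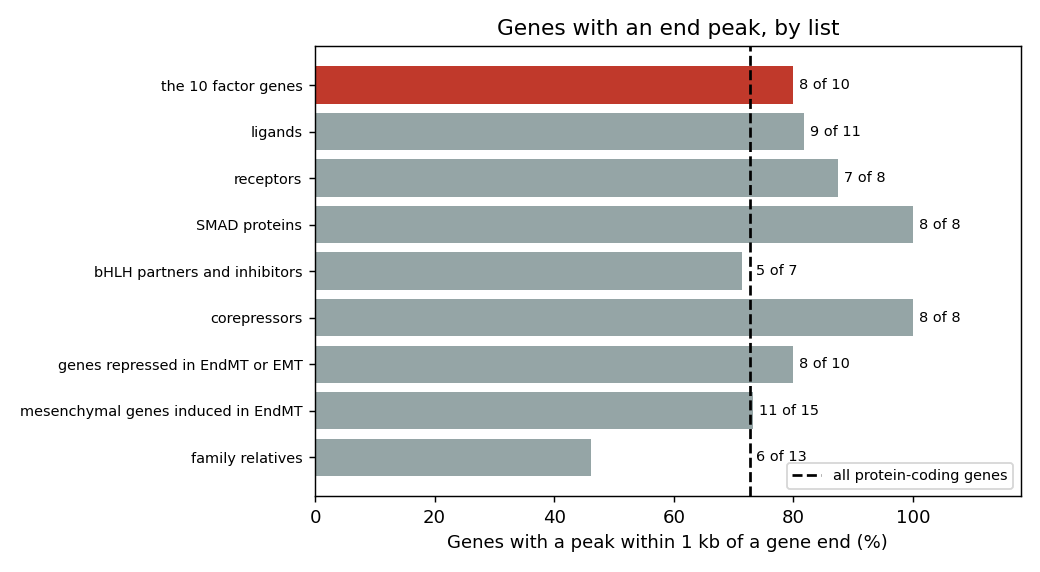
Share in percent of genes with a peak within 1 kb of a gene end (x axis) for the 10 factor genes and 8 lists of related genes (y axis), with counts beside the bars; the dashed line is the share over all protein-coding genes, 72.8%. All lists but the family relatives (6 of 13) lie near or above the line, which is not matched for gene length or neighbours.

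The miR-200 microRNAs repress ZEB1 and ZEB2 by pairing with their mRNAs, and come from 2 clusters. Their mature 3p strands from RefSeq are shown with the seed, bases 2 to 8, in capitals, because the seed sets which targets are paired; the first 3 share the seed AAUACUG and the last 2 the seed AACACUG.
hsa-miR-200b-3p: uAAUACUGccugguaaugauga
hsa-miR-200c-3p: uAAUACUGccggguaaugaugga
hsa-miR-429: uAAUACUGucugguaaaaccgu
hsa-miR-200a-3p: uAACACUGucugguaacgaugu
hsa-miR-141-3p: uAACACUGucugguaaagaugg

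On chromosome 12, MIR141 and MIR200C lay 731 and 1156 bp from a peak from 6964922 to 6965417 with 41.2 tags, and each had 17 peaks within 50 kb. On chromosome 1, MIR429, MIR200A and MIR200B lay 4661 to 6550 bp from their nearest peak, which had 9.53 tags, with 7 or 8 peaks within 50 kb. These distances and counts are given without a background and were not matched for neighbouring genes. The data hold no measure of the microRNAs themselves.

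Markers of the labelled cell type were checked in the same way. All 8 endothelial marker genes had an end peak, against a background of 72.8% of all protein-coding genes for this and the other marker lists. Their median length percentile of peak number was the 87.9th. End peaks were also present at 8 of 9 mural and fibroblast, 4 of 5 neuronal and glial, 4 of 4 leukocyte and 3 of 4 epithelial marker genes, with median percentiles of 60.4, 71.0, 64.9 and 77.9. The median of the highest end peak was 35.0 tags for the endothelial markers, below the 45.7 of all protein-coding genes. For the other lists it was 38.1, 25.7, 30.8 and 77.4 in the same order. In the epithelial list 77.4 tags was the value of both KRT8 and KRT18 on chromosome 12, which may be 1 peak counted for both, and EPCAM had 9.31. The genes without an end peak were DES, AQP4 and CDH1. By length percentile of peak number, endothelial markers ran from KDR (55.2nd), TIE1 and CLDN5 up to VWF, CDH5 and PECAM1 (99.7th). Mural and fibroblast markers ran from PDGFRA (24.8th), ACTA2 and COL1A2 up to COL1A1, PDGFRB and CSPG4 (99.3rd). The smaller lists ran from AQP4 (1.52nd) to GFAP (91.8th), from CD14 (53.0th) to CD68 (72.9th) and from CDH1 (46.2nd) to KRT8 (97.6th). Neither the end peak count nor the end pileup separated the endothelial markers from the other lists.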

How the data were processed

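One ATAC-seq library of hCMEC/D3 was used. Per the file headers, the authors called broad peaks with MACS 2.2.7.1 without a control, in single-end mode, with a shift of -100 bp, an extension of 200 bp and q limits of 0.05 (strong) and 0.1 (broad); 22188172 of 31532245 tags remained after keeping 1 per position. The genome size in the header, 1870000000 bp, is the mouse preset. It enters the background that the caller took from the whole genome, not that taken from the neighbourhood of a peak. The deposited list gives each peak a width, a pileup signal, a fold (a ratio over local background), and p and q as −log10 p-value and −log10 q-value, compared here only within the list. The submitters' processing notes name Bowtie2, SAMtools 1.13, Picard and the builds GRCh38 and mm10, without roles, and the peak list names no build. As a check, 64.8% of protein-coding start windows of GRCh38.p14 held a peak, against 4.95% to 6.47% when shifted by 2000 to 50000 bp.

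Peaks were placed with Python 3.11.15 and pandas 2.3.3 (overlap of at least 1 bp), by code tested on simulated data. No test was made: with 1 library, values were ranked among protein-coding genes, the 10 genes left out. Named genes are all 10, of each list those without an end peak or among the 3 highest or lowest in length percentile (in the smallest marker lists the extremes), and coding neighbours within 50 kb; 1 gene that the rule names is not reported here. Other neighbours, and single peaks, were picked after their values were seen. The genes and lists were chosen with earlier results of these data known. The 2 RNA libraries were not used here, since their transcript identifiers are not paired with gene symbols in the files used. Filters, windows, flanks and length bands were varied.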

Additional observations from a re-analysis of the deposited data

How the results depend on the processing

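The count of 8 genes with an end peak was 6 with −log10 q of at least 5, without TWIST1 and ZEB2 (all protein-coding genes 66.7%), and 7 with pileups of at least 20 tags (63.4%) or end windows of 500 bp (69.2%), in each case without TWIST1. It was 10 with windows of 2500 bp (79.2%) and 3 with a fold of at least 4 (56.0%), which left SNAI1, SNAI2 and MSX1. The 97 peaks became 57, 49 and 45 under the q, fold and pileup filters, as fewer peaks enter. They became 72 with flanks of 25 kb and 141 with flanks of 100 kb. Of 60 counts for single genes under the filters, a minimum overlap of 200 bp and the other flanks, 28 moved by over 1.5 times; SNAI1 fell from 19 to 10 peaks with flanks of 25 kb. The median length percentile of peak number, the 43.7th, ran from the 33.2nd (fold filter) to the 61.6th (no flank) over the alternatives set in advance, was the 57.1st with a similar number of neighbours, and was the 71.5th with an equal number, an alternative chosen after seeing the data. The median pileup of 19.0 tags ran from 17.8 to 29.2. With no replicates, these shifts can be set only against the SD over the 10 genes (30.6 percentile points) and over the 97 peaks (12.6 tags), which is a wide yardstick and not a replicate error. The share of peaks of high fold turned from above to below that of all peaks between the limits of 8, the one looked at first, and 7. No paired analysis was possible because the ATAC group is 1 library and no test was made. Depth limits absence: the lowest pileup called was 8.0 tags, and openness below it was not detectable.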

Other observations

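The genes that shared the highest end peak with 5 of the 10 factor genes were ZEB1-AS1 at ZEB1, ZEB2-AS1 at ZEB2, LOC107986942 at SNAI2, LOC100287387 at TWIST2 and LOC124901353 at TBX18. Accessibility there cannot be assigned to 1 of the overlapping or adjoining genes. The end peaks of SNAI1, TWIST1 and MSX1 were not shared.

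Over the 97 peaks the median width was 362 bp, against 452 bp over all peaks in the library. The median pileup was 19.0 tags against 21.6, and the median fold 4.05 against 4.49.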
